A study of Mus musculus with 4 samples.

Results

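Transcription factors that make and keep a macrophage were followed in mouse macrophages whose Adcy7 gene had been targeted. The 9 genes are Spi1, Maf, Cebpa, Cebpb, Cebpd, Klf2, Klf4, Runx1 and Zeb2. They were chosen by name as myeloid lineage factors from a table of 55401 Ensembl genes, with earlier results of these data known. All 9 were in the table and all 9 were among the 15832 genes that passed the filter on low counts. RNA came from bone marrow-derived macrophages, which are grown from marrow cells in culture, here from C57BL/6J marrow. In the Adcy7 knockout (Adcy7 KO) group, 2 libraries, the marrow cells had been given CRISPR-Cas9 lentivirus aimed at Adcy7, which encodes adenylyl cyclase 7, a maker of cyclic AMP. In the Rosa control group, 2 libraries, the same kind of virus was aimed at Rosa, a locus often used as a neutral target. Both groups thus received Cas9 and virus. The virus was given on day 1 once the cells had been isolated, at an MOI (virus units per cell) of 30, and the cells were differentiated within 5 days. The labels give neither the guides nor the share of cells edited, and each library is a bulk culture. They do not say whether libraries came from separate mice or cultures, so the p-values reflect only how far these libraries differ, possibly for technical reasons.

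The libraries held 61782358 to 71914179 counts, and all carried batch number 1. Levels are in CPM, each gene's count divided by its library's total and scaled to counts per 1e+06. Adcy7 itself (ENSMUSG00000031659) was at 59.4 and 58.8 CPM in Adcy7 KO libraries, against 122.1 and 124.8 CPM in Rosa control libraries, a log2 fold change of -1.05 with an adjusted p of 4.24e-05. Its mRNA was reduced but present. Of 10 macrophage markers 8 fell, 1 rose and 1 did not pass, where 23.4% of all tested genes fell and 23.4% rose. Their summed level was 22780 to 22979 CPM in Adcy7 KO and 57548 to 59510 CPM in Rosa control. Most of that difference was Lyz2, the gene of lysozyme, at a mean of 16453.9 CPM in Adcy7 KO and 51283.5 CPM in Rosa control. The other 9 markers summed to 6341 to 6511 CPM in Adcy7 KO and 7190 to 7300 CPM in Rosa control. The marker that rose was Cd14, a receptor for bacterial lipopolysaccharide, at a mean of 2616.1 CPM in Adcy7 KO and 1390.3 CPM in Rosa control. Cd68, a lysosomal membrane protein of macrophages, was at 956 and 894 CPM in Adcy7 KO and at 916 and 855 CPM in Rosa control. Csf1r, the receptor for macrophage colony-stimulating factor, was at 1307 and 1168 CPM in Adcy7 KO against 1812 and 1806 CPM in Rosa control. Aif1, Mertk and C1qa, which many macrophages carry, were near absent in Adcy7 KO, at means of 0.315, 0.317 and 0.0278 CPM against 89.0, 17.5 and 71.7 CPM in Rosa control.

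Blood cells take the macrophage path under a small set of transcription factors. PU.1, the product of Spi1, opens chromatin at myeloid genes, and it works beside C/EBP factors and RUNX1. KLF4, KLF2, MAF and ZEB2 act later, on monocyte formation, on the resting or inflamed state and on the identity of tissue macrophages. Several of them hold cells to a quiet state, while C/EBP beta is known for driving genes of the inflammatory response.

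All 9 factors passed the test, 4 higher and 5 lower in Adcy7 KO. The comparison asks how macrophage gene expression differs once Adcy7 is targeted. Cebpb, Klf4, Runx1 and Zeb2 rose by 1.45-fold, 2.57-fold, 1.34-fold and 1.40-fold. Spi1, Cebpa, Cebpd, Klf2 and Maf fell to 53.0%, 65.5%, 25.3%, 29.9% and 12% of the Rosa control level. A gene was called when its p from the quasi-likelihood test of edgeR, adjusted by Benjamini and Hochberg over all tested genes, was under 0.05. By that rule 46.7% of tested genes passed, 23.4% higher and 23.4% lower, and 57.8% of the 8703 genes at or above the mean level of Klf4, the least abundant of the 9 in CPM. A call alone therefore says little about a gene here, and the sizes of the changes carry more. The median absolute log2 fold change was 0.92 over the 9 factors and 0.53 over all tested genes. The 9 were chosen with earlier results of these data known, so this comparison is a description and not a test. A change of at least 2-fold was seen in 4 of the 9 (Maf, Cebpd, Klf2 and Klf4) and, with a call, in 20.9% of tested genes. The 2 groups did not overlap for any of the 9 factors, as for 75.2% of tested genes.

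**Figure D1:**
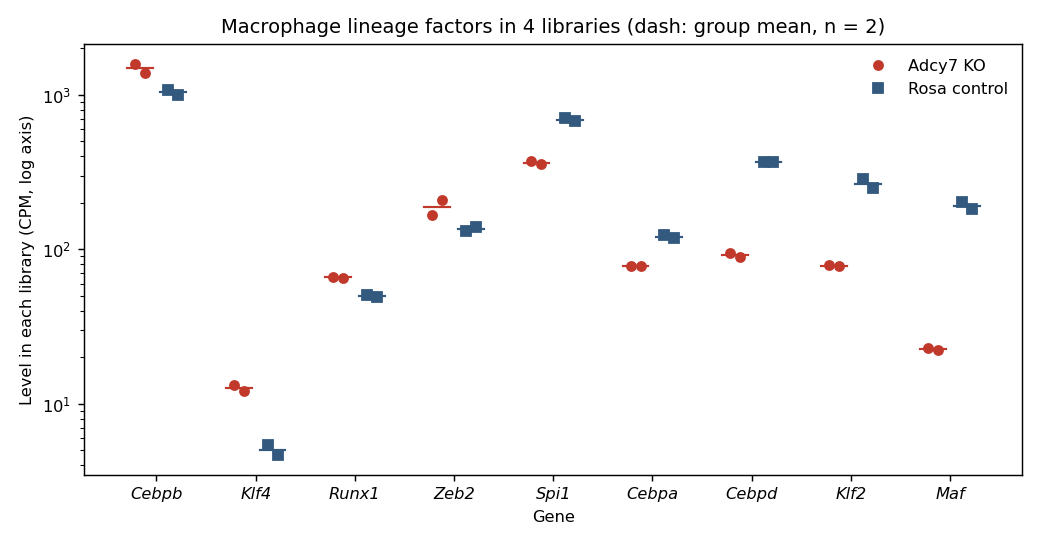
Level of each lineage factor in each library, in CPM on a log axis, with Adcy7 KO as circles and Rosa control as squares. A dash marks the mean of 2 libraries. The circles lie above the squares for Cebpb, Klf4, Runx1 and Zeb2 and below them for the other 5 genes, with the widest gap at Maf.

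**Figure D2:**
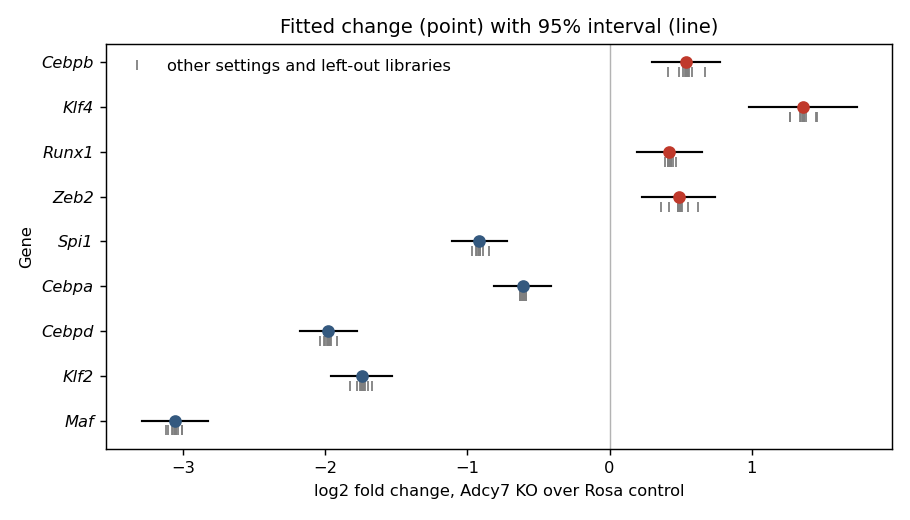
Fitted log2 fold change of Adcy7 KO over Rosa control (point), its 95% interval (line) and the values under other settings and with single libraries left out (grey ticks). Maf lies near -3.06 and Klf4 near 1.36, and no tick of any gene crosses 0.

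By the annotation, Spi1 (ENSMUSG00000002111), Cebpb (ENSMUSG00000056501) and Zeb2 (ENSMUSG00000026872) lie on chromosome 2. Klf4 (ENSMUSG00000003032) lies on chromosome 4 and Cebpa (ENSMUSG00000034957) on chromosome 7. Klf2 (ENSMUSG00000055148) and Maf (ENSMUSG00000055435) lie on chromosome 8, and Cebpd (ENSMUSG00000071637) and Runx1 (ENSMUSG00000022952) on chromosome 16.

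Spi1 encodes PU.1, the ETS factor without which macrophages do not form. Its level was 370.8 and 353.6 CPM in Adcy7 KO libraries, against 706.3 and 675.0 CPM in Rosa control libraries. Both knockout libraries lay at about the same level, well under both controls. The log2 fold change was -0.92 with a standard error (SE) of 0.08 and an adjusted p of 5.68e-05. In bulk samples, fewer cells that express a gene and less RNA per cell cannot be told apart, here and in all results that follow.

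Known targets of PU.1 were lower more often than higher. Among 13 genes, 8 were called lower and 3 higher, beside 23.4% called lower and 23.4% called higher over all tested genes. The median log2 fold change was -0.49, beside 0.01 over all tested genes. Of the 13, Csf1r, Cd68, Itgam and Fcgr1 were also counted as macrophage markers, and Csf3r as a C/EBP target and neutrophil marker. Fcgr1, the high-affinity receptor for immunoglobulin G, was at 16.4 and 15.9 CPM in Adcy7 KO and at 152.4 and 122.0 CPM in Rosa control. Csf3r, the receptor for granulocyte colony-stimulating factor, had a log2 fold change of -1.42 (SE 0.11), and Itgam, the integrin chain CD11b, one of -0.87 (SE 0.08). The members that rose were Acp5, Cybb and Tlr4. Acp5, the tartrate-resistant acid phosphatase of osteoclasts, was at 362 and 326 CPM in Adcy7 KO and at 41.5 and 40.7 CPM in Rosa control. Cybb, the catalytic chain of the phagocyte oxidase, rose 1.47-fold. Cd68 and Csf2ra, a receptor chain for granulocyte-macrophage colony-stimulating factor, did not pass, with log2 fold changes of 0.08 (SE 0.09) and -0.17 (SE 0.12).

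Among 14 relatives of Spi1 in the ETS family, 3 were called higher and 2 lower, a called share of 35.7% beside 46.7% of all tested genes. Without Adcy7 KO replicate 1 the relatives called higher were 5, and without Rosa control replicate 2 those called lower were 1. Spib and Spic, the closest relatives, rose while Spi1 fell. Spib, which encodes Spi-B of B cells and plasmacytoid dendritic cells, was at 5.87 and 6.07 CPM in Adcy7 KO and at 0.471 and 0.458 CPM in Rosa control. Spic, the factor of red pulp macrophages that is induced by heme, was at 2.56 and 2.85 CPM in Adcy7 KO and at 0.0608 and 0.0572 CPM in Rosa control. The fold for Spic is not given, because its Rosa control libraries held 4 counts each. Spib is also expressed by B cells. In the same libraries 5 of the 6 tested B cell markers rose, beside 23.4% of all tested genes. Of these, Pax5 held 8 counts and Ebf1 at most 4 in either Rosa control library, so their calls could hardly be lower. With Igll1 at 0, the 8 listed markers summed to 38.4 to 41.1 CPM in Adcy7 KO and 27.1 to 28.1 CPM in Rosa control. Without Cd79b, the most abundant of them and the one that fell, the sum was 22.6 to 23.8 CPM in Adcy7 KO and 1.95 to 2.32 CPM in Rosa control. The part of such cells in the rise of Spib was not tested. Fli1, an ETS factor of progenitors and megakaryocytes, and Etv3, a repressor, had log2 fold changes of -0.80 (SE 0.10) and -0.50 (SE 0.11). The call of Etv3 was lost without Rosa control replicate 2 (adjusted p of 0.0548). Elf4 and Elk3 did not pass, with log2 fold changes of -0.13 (SE 0.11) and -0.16 (SE 0.10).

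Runx1 encodes the RUNX factor that starts blood formation and primes Spi1 in progenitors. It was at 66.6 and 65.4 CPM in Adcy7 KO, against 50.6 and 48.9 CPM in Rosa control. The libraries of each group sat close together, and the gap between groups was small. The log2 fold change was 0.42 (SE 0.10), at an adjusted p of 0.00885, and the adjusted p rose to 0.0733 and 0.0758 when Rosa control replicate 1 or 2 was left out. Runx3, a relative that acts in lymphocytes and some myeloid cells, was 1.31-fold higher (adjusted p of 0.0218, and 0.0654 or 0.19 without control replicate 1 or 2). Within a library, the count ratio of Runx1 to Runx3 was 1.61 and 1.73 in Adcy7 KO and 1.57 and 1.69 in Rosa control, so it overlapped between groups. Runx2, the factor of bone-forming cells, was lower, at 3.16 and 4.47 CPM in Adcy7 KO against 6.78 and 6.91 CPM in Rosa control. Cbfb, the shared partner that lets RUNX factors bind DNA, did not pass, with a log2 fold change of -0.25 (SE 0.11), and neither did the corepressor Cbfa2t2 at -0.03 (SE 0.16). Runx1 is also strongly expressed in megakaryocytes. All 10 platelet and megakaryocyte markers rose, beside 23.4% of all tested genes called higher. Their summed level was 419.3 to 473.0 CPM in Adcy7 KO and 197.8 to 214.8 CPM in Rosa control. Without Pf4, the most abundant, it was 230.5 to 265.6 CPM in Adcy7 KO and 44.3 to 44.9 CPM in Rosa control. The part of such cells in the change of Runx1 was not tested.

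The 3 C/EBP genes of the list moved apart. Cebpa encodes C/EBP alpha, which commits progenitors to the myeloid path and restrains division. It was at 77.5 and 78.3 CPM in Adcy7 KO, against 122.8 and 117.6 CPM in Rosa control, a log2 fold change of -0.61 (SE 0.09, adjusted p of 0.000655). Cebpd encodes C/EBP delta, which is induced in inflammation and amplifies it. It was at 93.9 and 89.5 CPM in Adcy7 KO, against 365.3 and 366.6 CPM in Rosa control, a log2 fold change of -1.98 (SE 0.09, adjusted p of 1.24e-06). Cebpb encodes C/EBP beta, which acts on cytokine, arginase and acute phase genes. It was at 1590 and 1379.7 CPM in Adcy7 KO, against 1078.4 and 989.0 CPM in Rosa control, a log2 fold change of 0.54 (SE 0.10, adjusted p of 0.00317). Cebpb was thus the most abundant of the 9 in both groups and the only C/EBP member of the list to rise.

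The balance among the C/EBP genes was read inside each library as a ratio of counts, with 1 added to each count, which no scaling between libraries changes. The ratio of Cebpb to Cebpd was 16.9 and 15.4 in Adcy7 KO and 2.95 and 2.70 in Rosa control, a 5.72-fold difference. The ratio of Cebpb to Cebpa was 20.5 and 17.6 in Adcy7 KO and 8.78 and 8.41 in Rosa control. The ratio of Cebpd to Cebpa was 1.21 and 1.14 in Adcy7 KO and 2.98 and 3.12 in Rosa control. The groups did not overlap for these 3 ratios. An exact two-sided permutation test of 2 against 2 libraries cannot go below p = 0.333, which each of the 3 reached, so the ratios are given as a description.

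**Figure D3:**
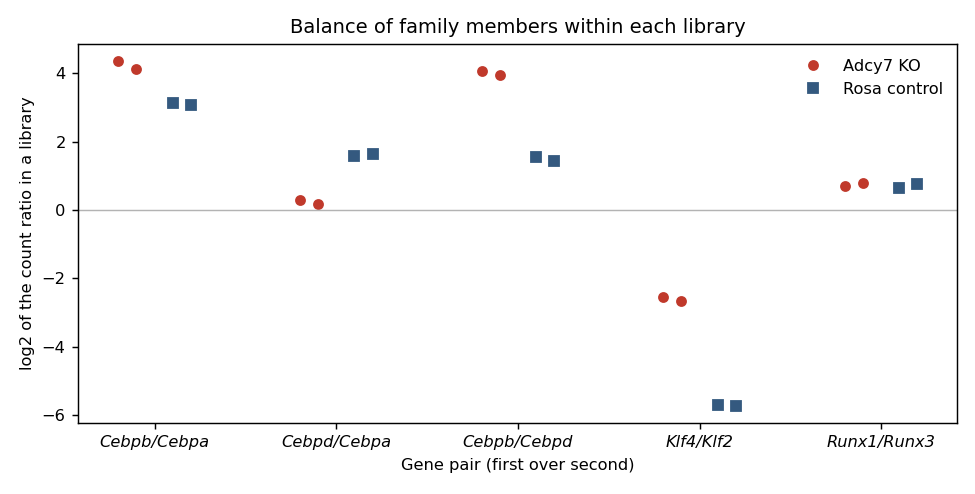
Log2 of the count ratio of gene pairs within each library, with Adcy7 KO as circles and Rosa control as squares. Gene length does not cancel within a ratio, so only the shift between groups can be read. Among the pairs shown the shift is largest for Klf4 over Klf2, by 3.10, and near 0 for Runx1 over Runx3, at 0.04.

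Reads on Cebpb, Cebpd and some other factors of the list may include those of neighbours, since the labels name no method that keeps strand. Exons of Tmem189 overlap those of Cebpb on the other strand by 312 bases. Tmem189 was at 448.7 and 442.8 CPM in Adcy7 KO and at 245.5 and 259.8 CPM in Rosa control, a 1.78-fold rise, and how its reads were shared with Cebpb was not tested. Spi1, Klf2 and Klf4 have no such neighbour in the annotation used. Exons of Spidr overlap those of Cebpd by 562 bases, and Spidr was at 20.6 and 25.5 CPM in Adcy7 KO and 37.1 and 39.9 CPM in Rosa control. Exons of Gm26626, on the other strand, overlap those of Runx1 by 106 bases. Gm26626 was at 1.63 and 2.98 CPM in Adcy7 KO and 0.851 and 1.73 CPM in Rosa control.

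The promoters of Cebpb and Cebpa are shown because these genes moved in opposite directions and because the cyclic AMP response element is the DNA site of CREB, a factor that protein kinase A switches on when cyclic AMP rises. The sequences are the 250 bases before the RefSeq start site on GRCm38.p6, at chr2:167688665-167688914 (plus strand) for Cebpb and chr7:35119043-35119292 (plus strand) for Cebpa. Capitals mark the half-site TGACG of that element, read on either strand (CGTCA), and the TATA box letters TATAAA.
Cebpb: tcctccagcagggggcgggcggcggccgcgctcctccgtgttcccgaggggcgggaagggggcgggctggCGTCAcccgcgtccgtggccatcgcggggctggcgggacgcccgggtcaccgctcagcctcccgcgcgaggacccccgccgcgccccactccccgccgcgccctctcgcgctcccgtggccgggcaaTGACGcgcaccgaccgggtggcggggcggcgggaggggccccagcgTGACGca
Cebpa: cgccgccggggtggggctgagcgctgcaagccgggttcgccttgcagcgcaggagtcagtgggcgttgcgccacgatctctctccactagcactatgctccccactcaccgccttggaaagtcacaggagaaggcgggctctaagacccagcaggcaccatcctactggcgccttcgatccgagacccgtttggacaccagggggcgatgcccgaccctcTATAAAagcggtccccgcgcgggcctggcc
Cebpb held 3 half-sites, which began 180, 53 and 7 bases before the start, and Cebpa held none. A TATAAA stood 30 bases before the start of Cebpa. The half-site occurs in 17.8% of all 32851 promoter windows of this length, the full element TGACGTCA in 1.55% and TATAAA in 12.4%. None of the windows of the listed factors held the full element. Of the remaining genes, Klf2 and Klf4 each held 1 half-site and Runx1 held none. In Zeb2, 2 overlapping windows held the same half-site. A match of letters is a description and not a bound site, and no match says only that these letters are not in this window. RefSeq windows were found for 6 of the 9 factors, and Spi1, Maf and Cebpd had no entry.

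Other C/EBP genes were higher or did not pass. Ddit3 encodes CHOP, a stress-induced family member that pairs with other C/EBP proteins and blocks their usual binding. It was at 73.4 and 69.2 CPM in Adcy7 KO and at 15 and 12 CPM in Rosa control, a 5.34-fold rise. Cebpe, the C/EBP of maturing granulocytes, rose 1.48-fold (adjusted p of 0.00989, and 0.109 without Rosa control replicate 2). Cebpg, a partner that lacks an activation domain, did not pass, with a log2 fold change of 0.15 (SE 0.12). Of the Tribbles proteins, TRIB1 and TRIB2 bring C/EBP alpha to the ubiquitin ligase COP1 for destruction. Trib1, which does so in myeloid cells, was at 12 and 12.1 CPM in Adcy7 KO and at 60.7 and 46.9 CPM in Rosa control. Trib2 was called higher at a low level, at 1.10 and 0.728 CPM in Adcy7 KO and 0.122 and 0.186 CPM in Rosa control. Its Rosa control libraries held 8 and 13 counts. Trib3, a relative induced by stress, rose 12.1-fold. Cop1 did not pass, with a log2 fold change of -0.32 (SE 0.13), though it passed as lower without Adcy7 KO replicate 1 (adjusted p of 0.0341) and without Rosa control replicate 1 (0.0454).

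Known C/EBP targets were mostly higher. Of 13 tested, 10 rose and 3 fell, with a median log2 fold change of 1.54 and a called share of 100%, beside 23.4% of all tested genes called higher and 23.4% called lower. Nos2, the inducible nitric oxide synthase, Ptgs2, the inducible cyclooxygenase, and Csf3, which encodes granulocyte colony-stimulating factor, rose 26.4-fold, 40.8-fold and 101-fold. Arg1, the gene of arginase and also a known C/EBP beta target, was at 361 and 352 CPM in Adcy7 KO and at 2289 and 2547 CPM in Rosa control. Csf3r and C3, the central complement component, were the other members that fell. Many of these genes are also known targets of NF-kB.

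Klf2 and Klf4, both Krüppel-like zinc finger factors, moved in opposite directions. Klf2 encodes a factor known for restraining inflammatory activation of monocytes and endothelium. It was at 79.0 and 77.9 CPM in Adcy7 KO, against 283.6 and 247.9 CPM in Rosa control, a log2 fold change of -1.74 (SE 0.09, adjusted p of 3.15e-06). Klf4 encodes a factor needed for monocyte formation and linked to alternative activation. It was at 13.3 and 12.1 CPM in Adcy7 KO, against 5.40 and 4.65 CPM in Rosa control, a log2 fold change of 1.36 (SE 0.16, adjusted p of 0.000259). In counts, Klf4 was at 0.169 and 0.156 of Klf2 in Adcy7 KO libraries and at 0.0191 and 0.0188 of it in Rosa control libraries. This was an 8.57-fold shift, and Klf2 still outnumbered Klf4 in every library.

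Their promoters are shown for the same reason, as RefSeq sequence of GRCm38.p6 at chr4:55532476-55532725 (minus strand) for Klf4 and chr8:72318812-72319061 (plus strand) for Klf2, with the half-site again in capitals.
Klf4: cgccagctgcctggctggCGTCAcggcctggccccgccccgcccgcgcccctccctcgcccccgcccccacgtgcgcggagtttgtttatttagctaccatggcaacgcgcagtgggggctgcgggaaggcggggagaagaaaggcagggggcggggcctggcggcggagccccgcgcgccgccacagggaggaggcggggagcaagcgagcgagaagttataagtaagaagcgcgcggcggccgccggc
Klf2: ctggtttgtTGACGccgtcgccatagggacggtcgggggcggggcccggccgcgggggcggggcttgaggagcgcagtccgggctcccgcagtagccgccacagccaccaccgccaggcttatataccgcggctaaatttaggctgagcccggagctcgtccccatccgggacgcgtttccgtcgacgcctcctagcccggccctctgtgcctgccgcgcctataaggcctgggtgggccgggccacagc
Each held 1 half-site, which began 232 bases before the start in Klf4 and 241 bases in Klf2. A match of letters is a description here too, and any part of these sites in the 2 changes was not tested. Klf4 held 4 and Klf2 held 2 copies of the GC box GGGCGG, to which SP and KLF proteins bind, on either strand, a motif found in 32.7% of all windows.

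Among the 15 other Krüppel-like genes listed, 10 were tested, and 2 were called higher and 4 lower, a called share of 60.0% beside 46.7% of all tested genes. The relatives called higher were 1 without either Rosa control library. Their median log2 fold change was -0.04. Klf9, which glucocorticoids induce, rose 1.89-fold, while Klf13 and Klf10 had log2 fold changes of -0.53 and -0.67, with SE values of 0.09 and 0.12. Klf3 was at -0.45 (SE 0.10). The call of Klf3 was lost without Rosa control replicate 1 (adjusted p of 0.0518), when 2 relatives were called lower. Klf16 and Klf11 did not pass, with log2 fold changes of -0.03 (SE 0.11) and -0.06 (SE 0.28). Klf12, Klf14 and Klf17 had no count in any library. The called relatives changed by at most 0.92 on the log2 scale, less than Klf2 and Klf4 did. Genes that KLF2 is known to drive in endothelium and T cells were lower. All 5 tested fell, beside 23.4% of all tested genes called lower, and their median log2 fold change was -0.58. Thbd, or thrombomodulin, had a log2 fold change of -1.59 (SE 0.40). S1pr1, a receptor for sphingosine phosphate, was at -0.58 (SE 0.14), and Itgb7, an integrin chain, at -0.39 (SE 0.09). Cdkn1a, an inhibitor of the cell cycle, was at -0.24 (SE 0.09), at an adjusted p of 0.0491. Its call was lost in 7 of 13 alternatives, among them DESeq2 size factors (0.0638), upper quartile scaling (0.0701) and no low-count filter (0.0663). Without Rosa control replicate 1, 1 of these 5 genes passed, without replicate 2 of that group 2 did, and without Adcy7 KO replicate 1, 3 did.

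Maf changed most of the 9 factors. It encodes c-MAF, a large MAF protein of resting tissue macrophages that is known to drive Il10. It was at 23.0 and 22.2 CPM in Adcy7 KO, against 200.8 and 181.7 CPM in Rosa control, 8.36-fold higher in Rosa control. The log2 fold change was -3.06 (SE 0.10) at an adjusted p of 3.51e-07. Both Adcy7 KO libraries lay far under both controls.

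The small MAF genes were higher. Their products lack an activation domain and pair with NRF2 and related factors at antioxidant elements. Maff was at 93.3 and 89.3 CPM in Adcy7 KO and at 10.2 and 9.0 CPM in Rosa control, a 9.62-fold rise. Mafk and Mafg rose 1.84-fold and 1.39-fold. Mafa, a pancreatic factor, did not pass, with a log2 fold change of -1.30 (SE 0.85), and Nrl, a retinal factor, had no count.

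**Figure D4:**
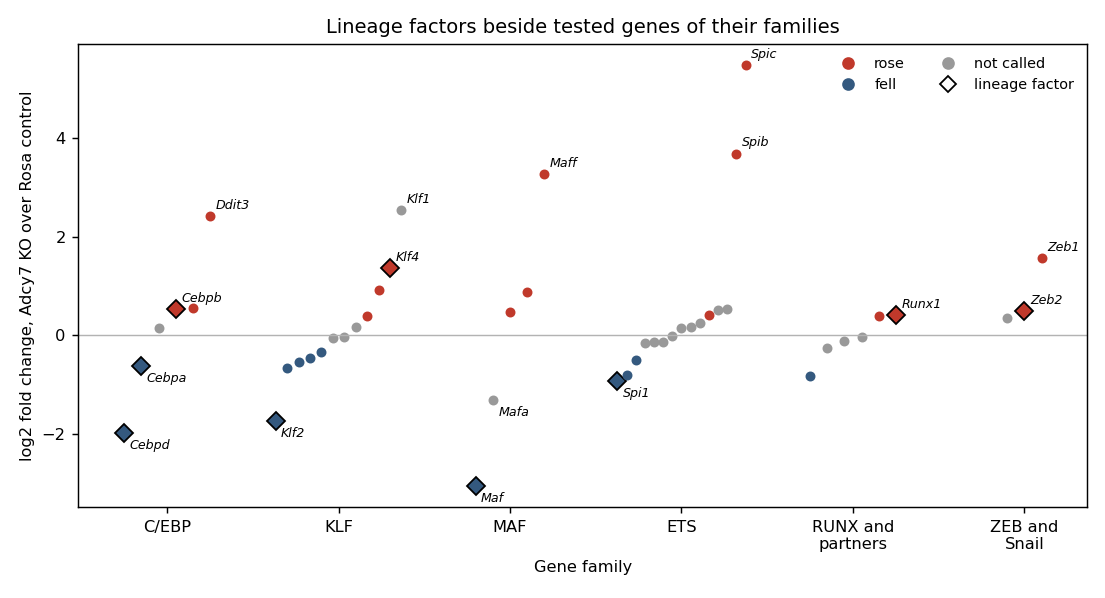
Log2 fold change of Adcy7 KO over Rosa control for the lineage factors (diamonds) and the tested relatives (circles) in 6 families, red for genes that rose, blue for genes that fell and grey for genes that did not pass. Maf lies at the bottom and Maff, Spib and Spic at the top.

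Genes of resident macrophages, several of them known to depend on c-MAF, were mostly lower, and several were near 0. Of 7 tested, 6 fell and 1 rose, beside 23.4% of all tested genes called lower and 23.4% called higher. The median log2 fold change was -8.13 when genes with under 12 pooled counts in a group were set to that floor. C1qa, C1qb and C1qc encode the chains of complement C1q. C1qc was at 0.222 and 0.405 CPM in Adcy7 KO and at 323.9 and 277.6 CPM in Rosa control. C1qb was at 0.487 and 0.0647 CPM in Adcy7 KO and at 452.6 and 383.7 CPM in Rosa control. C1qa had 4 counts in 1 Adcy7 KO library and none in the other, and stood at 76.5 and 66.9 CPM in Rosa control. Il10, a restraining cytokine that c-MAF is known to drive, rose to 37.7 and 53.7 CPM in Adcy7 KO, against 1.40 and 1.16 CPM in Rosa control.

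**Figure D5:**
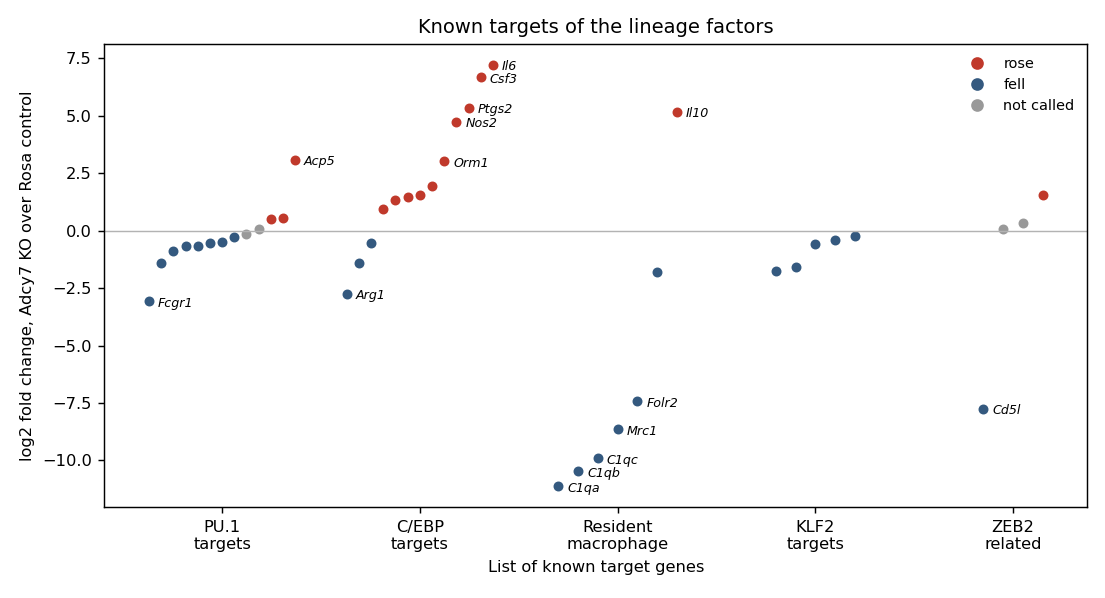
Log2 fold change of Adcy7 KO over Rosa control for known targets of the lineage factors and related genes, 1 point per tested gene, coloured as rose, fell or not called. Fitted values of C1qa, Mrc1, Folr2 and Cd5l rest on at most 12 pooled counts in Adcy7 KO and show direction only. The resident macrophage group lies low apart from Il10, and 10 of 13 C/EBP targets lie above 0.

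Zeb2 encodes a zinc finger repressor that maintains the identity of monocytes and tissue macrophages. It was at 167.5 and 208.6 CPM in Adcy7 KO, against 130.5 and 139.8 CPM in Rosa control. The Adcy7 KO libraries stood apart from each other, and both lay above both controls. The log2 fold change was 0.49 (SE 0.11) at an adjusted p of 0.00738, which became 0.0662 without Rosa control replicate 1. Zeb2os, an RNA from the other strand at the start of Zeb2 whose exons share 653 bases with it, was at 2.17 and 2.90 CPM in Adcy7 KO and at 8.24 and 8.73 CPM in Rosa control. It fell by 1.73 on the log2 scale (SE 0.21) while Zeb2 rose. Strand handling is not given here either, and how reads were shared between Zeb2os and Zeb2 was not tested. Zeb1, the paralog, rose 2.97-fold, to 3.25 and 4.63 CPM in Adcy7 KO against 1.46 and 1.22 CPM in Rosa control. Snai1, of the Snail family of repressors, did not pass, with a log2 fold change of 0.35 (SE 0.72). Of 6 genes tied to ZEB2, 4 were tested. Id2, which ZEB2 represses in dendritic cells, rose 2.88-fold, and Cd5l, a marker of resident macrophages, had 12 counts and none in Adcy7 KO and stood at 22.4 and 17.1 CPM in Rosa control. Nr1h3, the liver X receptor, and the cadherin gene Cdh1 did not pass, with log2 fold changes of 0.34 (SE 0.14) and 0.07 (SE 0.26). Nr1h3 passed without Adcy7 KO replicate 2 (adjusted p of 0.0126).

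Other factors of monocytes, macrophages and osteoclasts were also split. Among 13 tested, 6 were called lower and 3 higher, a called share of 69.2%. That share was 46.7% over all tested genes and 57.8% among those at or above the mean level of Klf4. The median log2 fold change of the 13 was -0.34. Irf8, a partner of PU.1 that monocytes need, was at 109.9 and 104.7 CPM in Adcy7 KO and at 346.9 and 337.4 CPM in Rosa control. Mef2c, a factor of progenitors and microglia, fell by 1.91 on the log2 scale (SE 0.17). Bhlhe40, which supports macrophage proliferation and cytokine output, and Id3, an inhibitor of basic helix-loop-helix factors, rose 3.42-fold and 3.16-fold. Mef2d and Tfec did not pass, with log2 fold changes of 0.07 (SE 0.09) and -0.18 (SE 0.14). Gata6 and Sall1, the factors of peritoneal macrophages and microglia, had no count.

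Factors of progenitors and other blood lineages were mostly higher when counted as genes, but their summed level was lower. The sum over the 14 was 136.6 to 138.1 CPM in Adcy7 KO and 264.8 to 276.9 CPM in Rosa control. Among 14 tested, 9 were called higher and 3 lower, a called share of 85.7% beside 46.7% of all tested genes. The median log2 fold change of the 14 was 1.48. In Rosa control, Gfi1b held 0 and 4 counts, Ebf1 4 and 2, Pax5 8 and 8, and Gata1 8 and 15. These genes passed the low-count filter through their Adcy7 KO counts, so a call could hardly be lower. The 9 called higher and the median partly follow from that filter. Gata2, of stem, mast and basophil cells, was at 8.91 and 8.08 CPM in Adcy7 KO and at 1.17 and 1.03 CPM in Rosa control. Gata1, of red cells, megakaryocytes and eosinophils, was at 4.89 and 3.30 CPM in Adcy7 KO and at 0.122 and 0.215 CPM in Rosa control. Pax5, of B cells, was at 1.93 and 2.23 CPM in Adcy7 KO and at 0.122 and 0.114 CPM in Rosa control. Its fold is not given, because its Rosa control libraries held 8 counts each. Lmo2, a bridging protein of progenitors, fell, at 48.1 and 44.0 CPM in Adcy7 KO and 175.5 and 167.5 CPM in Rosa control. Ikzf1 and Hoxa9 were the others called lower, at means of 52.1 and 0.855 CPM in Adcy7 KO. Their means in Rosa control were 79.2 and 2.05 CPM. Gfi1, of granulocytes, and Myb, of progenitors, did not pass, with log2 fold changes of -0.10 (SE 0.17) and 0.00 (SE 0.27).

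Markers of other cells moved in the same libraries, and their part in the changes of the 9 factors was not tested. The lists share genes, so their counts are not separate observations. Gata2, Pax5 and Ebf1 were counted both as factors of other lineages and as markers. The macrophage markers Cd14 and C1qa were also counted as a C/EBP target and a resident macrophage gene. Over all tested genes, 23.4% were called higher and 23.4% lower. Of eosinophil markers 7 of 8 tested rose. Among those, Ear1 held 8 and 0 counts in Rosa control, Ear2 16 and 4, and Ear6 0 and 0. Their calls could hardly be lower. The summed level of eosinophil markers was 230.3 to 290.9 CPM in Adcy7 KO and 32.2 to 36.1 CPM in Rosa control. Without Prg2, which made up most of it, the sum was 40.4 to 42.0 CPM in Adcy7 KO and 6.5 to 8.93 CPM in Rosa control. Of mast cell and basophil markers 6 of 7 tested rose, with the proteases Mcpt4 and Cma1 at 0. These markers summed to 62.8 to 64.6 CPM in Adcy7 KO and 24.8 to 32.8 CPM in Rosa control. Without Hdc, the most abundant of them, the sum was 32.7 to 33.6 CPM in Adcy7 KO and 2.72 to 3.06 CPM in Rosa control. Of erythroid markers 4 of 6 tested rose (21.1 to 26.4 CPM in Adcy7 KO, 2.78 to 3.25 CPM in Rosa control). Of dendritic cell markers 4 of 7 tested rose and 1 fell (49.3 to 49.9 CPM in Adcy7 KO, 11.6 to 12.7 CPM in Rosa control). That sum was mostly Ccr7, and without it was 8.24 to 8.79 CPM in Adcy7 KO and 8.9 to 10.5 CPM in Rosa control. Neutrophil markers, which matter for Cebpd, Cebpe and Csf3r, summed to 5285 to 6737 CPM in Adcy7 KO and 5985 to 7306 CPM in Rosa control, with 5 of 10 lower, 5 not passing and none higher. Of monocyte markers 6 of 8 fell and 1 rose (2243 to 2795 CPM in Adcy7 KO, 3338 to 3595 CPM in Rosa control). Without Chil3, the most abundant and the one that rose, the sum was 906 to 986 CPM in Adcy7 KO and 2430 to 2440 CPM in Rosa control. Of 9 T and natural killer cell markers 3 were tested, and Il7r alone was called, as higher. Their sum was 109.9 to 126.1 CPM in Adcy7 KO and 7.54 to 8.94 CPM in Rosa control, with Ncr1 at 0. Without Il7r the sum was 1.02 to 1.32 CPM in Adcy7 KO and 0.172 to 0.532 CPM in Rosa control. Of stromal markers 2 of 6 tested rose (28.3 to 29.0 CPM in Adcy7 KO, 14.3 to 18.1 CPM in Rosa control). Without Pecam1, the most abundant, the sum was 9.18 to 11.4 CPM in Adcy7 KO and 2.45 to 2.92 CPM in Rosa control.

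Levels of different genes can be compared only per length, so CPM was divided by the kilobases of each gene's annotated exons. On this scale Cebpb led, at 987.3 ± 98.8 CPM per kb in Adcy7 KO and 687.3 ± 42.0 in Rosa control (SD, n = 2 each). Spi1 was second, at 134.4 ± 4.51 in Adcy7 KO and 256.3 ± 8.21 in Rosa control, followed by Klf2 at 42.5 ± 0.447 in Adcy7 KO and 143.9 ± 13.7 in Rosa control. In Adcy7 KO the order went on with Cebpa (29.5 ± 0.225), Cebpd (24.5 ± 0.844), Zeb2 (9.43 ± 1.46), Runx1 (5.48 ± 0.0702), Klf4 (4.18 ± 0.281) and Maf (2.74 ± 0.0704). In Rosa control it went on with Cebpd (97.7 ± 0.238), Cebpa (45.6 ± 1.39), Maf (23.2 ± 1.64), Zeb2 (6.78 ± 0.332), Runx1 (4.14 ± 0.0965) and Klf4 (1.65 ± 0.173). Neighbours in each order were further apart than their libraries. Maf was thus last in Adcy7 KO but above Zeb2, Runx1 and Klf4 in Rosa control, and Cebpa and Cebpd stood in opposite order in the 2 groups. The order was the same with the longest transcript as the length. The exons joined over all isoforms are long for Zeb2 (19942 bases) and Runx1 (12025 bases), which lowers their values on this scale.

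Genes with the most similar pattern were sought by the distance between log2 CPM values, centred on each gene's mean, over the 4 libraries. With 4 libraries in 2 groups, such likeness mostly restates the size of the group difference. Of 12203 genes compared, 1525 lay within a distance of 0.25 of Runx1, 1176 of Cebpa, 816 of Cebpb, 805 of Zeb2 and 595 of Spi1, but 143 of Klf4, 124 of Klf2, 114 of Cebpd and 19 of Maf. The nearest to Maf were Jaml (distance 0.067) and Fam110b (0.098). The nearest to Cebpd were Tbxas1 (0.036) and Cryl1 (0.047), to Klf2 Themis2 (0.052) and Lpin1 (0.057), and to Klf4 2410131K14Rik (0.056) and Slc12a2 (0.065). Cebpb was nearest to Adprh (0.01) and Unc119b (0.029), Cebpa to S100a11 (0.005) and Lmnb2 (0.015), and Spi1 to Naa10 (0.018) and Mta1 (0.019). Runx1 was nearest to March9 (0.016) and Prep (0.018), and Zeb2 to Btaf1 (0.022) and Fubp1 (0.023).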

How the data were processed

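Poly(A) RNA was sequenced from 4 libraries. The authors deposited expected counts for each Ensembl gene, as whole numbers without normalization. The submitters' processing notes name HISAT2, fastp, edgeR and StringTie and the build GRCm39. For their versions, settings, annotation and strand handling nothing is given in the sources used here. Counts pile up at multiples of 4 (30.54% to 32.17% of counts from 1 to 40, where 25% would be by chance), so 1 fragment may stand for about 4 counts. The floor of 12 counts pooled over a group assumes this, covers counting error only, and is 0.0898 CPM in Adcy7 KO and 0.0885 CPM in Rosa control.

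Columns were matched to samples by KO or ROSA and the replicate number, and groups come from the treatment label. Symbols were found for 55141 IDs in an annotation of another build (GRCm38), which also gave exon lengths and overlaps. Where IDs shared a symbol, the one with the most counts kept it. After filtering with filterByExpr and TMM scaling, genes were tested in R 4.3.3 with edgeR 4.0.16 by its quasi-likelihood method, leaving 2 residual degrees of freedom, with p-values adjusted over 15832 genes at a threshold of 0.05. SE is the absolute log2 fold change divided by the square root of the test's F. The test was run on simulated counts with a common dispersion, far fewer changed genes than here and no piling up at multiples of 4. That run therefore does not speak to the error rate in these data. DESeq2 1.42.0, other scalings and filters, counts divided by 4, a replicate block and leaving out each library were alternatives, and robust estimation and marker sums without the most abundant gene were chosen after seeing the data. The 9 members and all lists were chosen with earlier results of these data known. From each list the text names up to 4 called genes with the smallest adjusted p and at least 1 CPM, and up to 2 not called with the highest level; others were named after their values were seen. Some listed genes, and 1 ratio, are not reported here and are left out of the list counts.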

Additional observations from a re-analysis of the deposited data

How the results depend on the processing

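The direction of each of the 9 factors was the same under every alternative run, and Spi1, Maf, Cebpa, Cebpb, Cebpd, Klf2 and Klf4 passed in every one. Without Rosa control replicate 1 the factors that rose were 2, since Runx1 (0.42, adjusted p of 0.0733) and Zeb2 (0.42, 0.0662) no longer passed, and without replicate 2 Runx1 (0.41, 0.0758) did not pass. With single libraries left out the log2 fold change ranged over 0.39 to 0.47 for Runx1 and 0.36 to 0.62 for Zeb2. The factors that rose therefore ranged over 2 to 4 with single libraries left out. These fits have 1 residual degree of freedom and assume that the lone library varies like the other group. The number of genes called was 7400, 7110 with DESeq2, 6543 without the low-count filter, 7443 with counts divided by 4, 7505 with robust estimation, and 5850 to 7292 with single libraries left out. The replicate block gave 7045 calls and changed no call of the 9, while 3 of the 5 KLF2 targets passed with it; same-numbered libraries deviated together with a correlation of 0.015, and the numbers are not stated to pair anything. Scaling moved the median of all genes by under 0.1 on the log2 scale. Log2 fold changes that changed sign, none of a called gene, were Klf16 (0.06 without Adcy7 KO replicate 2, 0.05 without Rosa control replicate 2), Klf11 (0.26 without Adcy7 KO replicate 1, 0.06 without Rosa control replicate 1), Mafa and Csf2ra (0.02 and 0.01 without Rosa control replicate 1), Cbfa2t2 (0.16 without Adcy7 KO replicate 2, 0.11 without Rosa control replicate 2), Cdh1 (-0.2 without Adcy7 KO replicate 2, -0.05 without Rosa control replicate 1) and Myb (-0.01 with library totals only and with no filter, -0.26 without Adcy7 KO replicate 2, -0.28 without Rosa control replicate 2). With single libraries left out, their other extremes were -0.11 for Klf16, -0.46 for Klf11, -1.99 for Mafa, -0.33 for Csf2ra, -0.22 for Cbfa2t2, 0.31 for Cdh1 and 0.33 for Myb. The cause was not tested. The remaining limit is 2 libraries a group.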
